A study of Mus musculus with 6 samples.

Results

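The genes described here are 41 genes of mitosis, chosen by name, in mouse cells treated with the histone deacetylase inhibitor trichostatin A (TSA). Of the 41, 40 had at least 1 array probe whose RefSeq identifier carried their symbol, through 61 of the 41174 probes, and all 40 were tested among 14526 genes. The other gene, Prc1, had no such probe and was not analysed here. The cells came from embryonic stem cells of 129/Ola mice that were plated on gelatin in serum-free N2B27 medium, and are labelled as differentiated day 3 cells. Total RNA came from 3 DMSO and 3 TSA samples, each treated for 24 h; the design text speaks of independent experiments. It was read on 6 single-colour (Cy3) Agilent arrays. DMSO is the solvent control, no allele or other agent is named in the labels, and the dose of TSA and the cell line's name are not given in the sources used here. Each experiment had its own slide, with DMSO at array position 3 and TSA at position 4, so that position and treatment cannot be told apart.

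Mitosis is run by the kinase Cdk1 with its B-type cyclins, by the Polo and Aurora kinases, and by a ubiquitin ligase, the anaphase-promoting complex, that destroys cyclins and securin once the spindle checkpoint is satisfied. Transcripts of these genes are made mainly in the G2 and M phases, so in a mixed culture their level follows how many cells are near division. The promoters of many of them carry a CHR element, bound by the MuvB complexes that repress these genes in resting cells and activate them in dividing cells, and CCAAT boxes, bound by NF-Y. Embryonic stem cells and their early derivatives divide fast, and inhibitors of deacetylases are known to slow division in many cell types.

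Those promoter elements were looked for in the 250 bases before the transcription start of each gene in RefSeq (build GRCm38.p6), as TTTGAA or TTTAAA for the CHR and as CCAAT for the box, on both strands; neither motif contains the other. Promoters were given for 34 of the 40 tested members, 36 windows in all. A CHR match lay in 21 of these (58.3%), against 25.2% of the 32851 windows of all genes in the table. A CCAAT match lay in 28 (77.8%), against 33.8% of all windows, and both lay in 19 (52.8%), against 8.78%. A match is a description of letters, not of a bound site. The windows below belong to some of the genes described in full further on. The last of them, of Pttg1, holds neither motif, and the others shown hold both. Among windows not shown, those of Anln, Mad2l1, Ndc80, Nuf2 and Nusap1 also hold neither motif. Those of Aurka, Bub1 and Cdca8 hold CCAAT matches but no CHR match. The windows shown are written 5′ to 3′ in the direction of transcription, with the matches in capitals.

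Cdk1 (chr10:69352913-69353162, minus strand): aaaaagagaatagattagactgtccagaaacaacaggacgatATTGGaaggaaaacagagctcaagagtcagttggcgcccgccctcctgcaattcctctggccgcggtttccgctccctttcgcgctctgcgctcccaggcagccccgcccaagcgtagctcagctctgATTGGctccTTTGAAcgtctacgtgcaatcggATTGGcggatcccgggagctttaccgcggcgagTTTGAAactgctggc
Ccnb1 (chr13:100786487-100786736, minus strand): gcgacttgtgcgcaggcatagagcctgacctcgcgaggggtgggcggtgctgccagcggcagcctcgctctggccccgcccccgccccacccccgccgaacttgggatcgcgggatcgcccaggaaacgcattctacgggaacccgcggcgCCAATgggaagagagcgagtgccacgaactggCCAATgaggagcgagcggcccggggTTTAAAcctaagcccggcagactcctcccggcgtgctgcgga
Cdc20 (chr4:118437344-118437593, minus strand): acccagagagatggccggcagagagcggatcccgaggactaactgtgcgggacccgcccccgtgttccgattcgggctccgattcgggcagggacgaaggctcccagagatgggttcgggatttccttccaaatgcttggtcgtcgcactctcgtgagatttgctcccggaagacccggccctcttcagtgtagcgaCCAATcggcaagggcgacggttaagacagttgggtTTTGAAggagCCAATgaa
Plk1 (chr7:122159185-122159434, plus strand): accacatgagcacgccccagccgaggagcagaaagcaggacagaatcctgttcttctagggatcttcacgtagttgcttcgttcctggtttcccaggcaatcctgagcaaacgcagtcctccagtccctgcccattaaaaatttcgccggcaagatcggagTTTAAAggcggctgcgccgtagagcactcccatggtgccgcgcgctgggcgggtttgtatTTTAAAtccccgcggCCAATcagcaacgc
Kif11 (chr19:37376132-37376381, plus strand): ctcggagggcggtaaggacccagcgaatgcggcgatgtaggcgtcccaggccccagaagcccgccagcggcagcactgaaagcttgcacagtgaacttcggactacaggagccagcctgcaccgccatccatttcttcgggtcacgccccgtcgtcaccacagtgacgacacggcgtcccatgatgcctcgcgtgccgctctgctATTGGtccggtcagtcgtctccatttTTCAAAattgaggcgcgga
Pttg1 (chr11:43425982-43426231, minus strand): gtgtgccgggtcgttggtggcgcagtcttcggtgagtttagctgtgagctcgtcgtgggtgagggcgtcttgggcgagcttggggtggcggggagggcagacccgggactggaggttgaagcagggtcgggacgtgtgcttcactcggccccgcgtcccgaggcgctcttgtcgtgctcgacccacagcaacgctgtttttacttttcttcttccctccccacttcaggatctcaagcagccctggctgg

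In Cdk1, Ccnb1, Cdc20, Plk1 and Kif11 the CHR match nearest to the start ended 9, 36, 12, 23 and 13 bases before it. The opposite-strand forms are visible as TTCAAA in Kif11 and as ATTGG in Cdk1 and Kif11.

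No mitosis gene passed the test in either direction. By limma, 0 of 40 rose and 0 fell (adjusted p under 0.05), and 0 reached an unadjusted p under 0.05; the smallest adjusted p was 0.555, that of Pttg1. Over all tested genes, 1.36% rose and 0.0551% fell, and 12.1% and 2.78% reached an unadjusted p under 0.05 on the higher and the lower side. The members' differences, TSA minus DMSO on the log2 scale, ran from -1.18 for Cenpf to 0.60 for Pttg1, with a median of -0.14 against 0.08 over all tested genes. The mean in TSA was lower for 27 members and higher for 13, a share of 67.5% lower, where 41.9% of all tested genes had a lower mean. With the slide as a block, which sets each TSA array against the DMSO array of its experiment, 0 members rose and 0 fell again, while 3.19% and 0.145% of all tested genes did so. In that fit, 3 of 40 members had an unadjusted p under 0.05 on the lower side and 0 on the higher side. Over all tested genes these shares were 5.45% and 17.5%. The 3 members were Bub1, Nusap1 and Smc4 (adjusted p = 0.238 for Bub1 and 0.247 for Nusap1 and Smc4). In RNA from whole cultures, fewer cells of a kind and less RNA per cell cannot be told apart.

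The arrays limit how close to no change these results can be read. The intervals given come from the fit without the slide block. With the block, the SE was 0.51 instead of 0.87 for Cenpf, and 0.17 instead of 0.18 for Anln. Without it, the median half-width of the 95% interval of a member's difference was 0.69 on the log2 scale. The interval lay within 2-fold in both directions for 26 of the 40 members, against 47.5% of all tested genes, and that of the other 14 reached past 2-fold on at least 1 side. Among genes with a mean level above the 75th percentile of the arrays, it lay within 2-fold for 65.8% of members and 62.7% of tested genes. All 40 were well above background and were measured on all 6 arrays, and no spot was saturated.

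**Figure D1:**
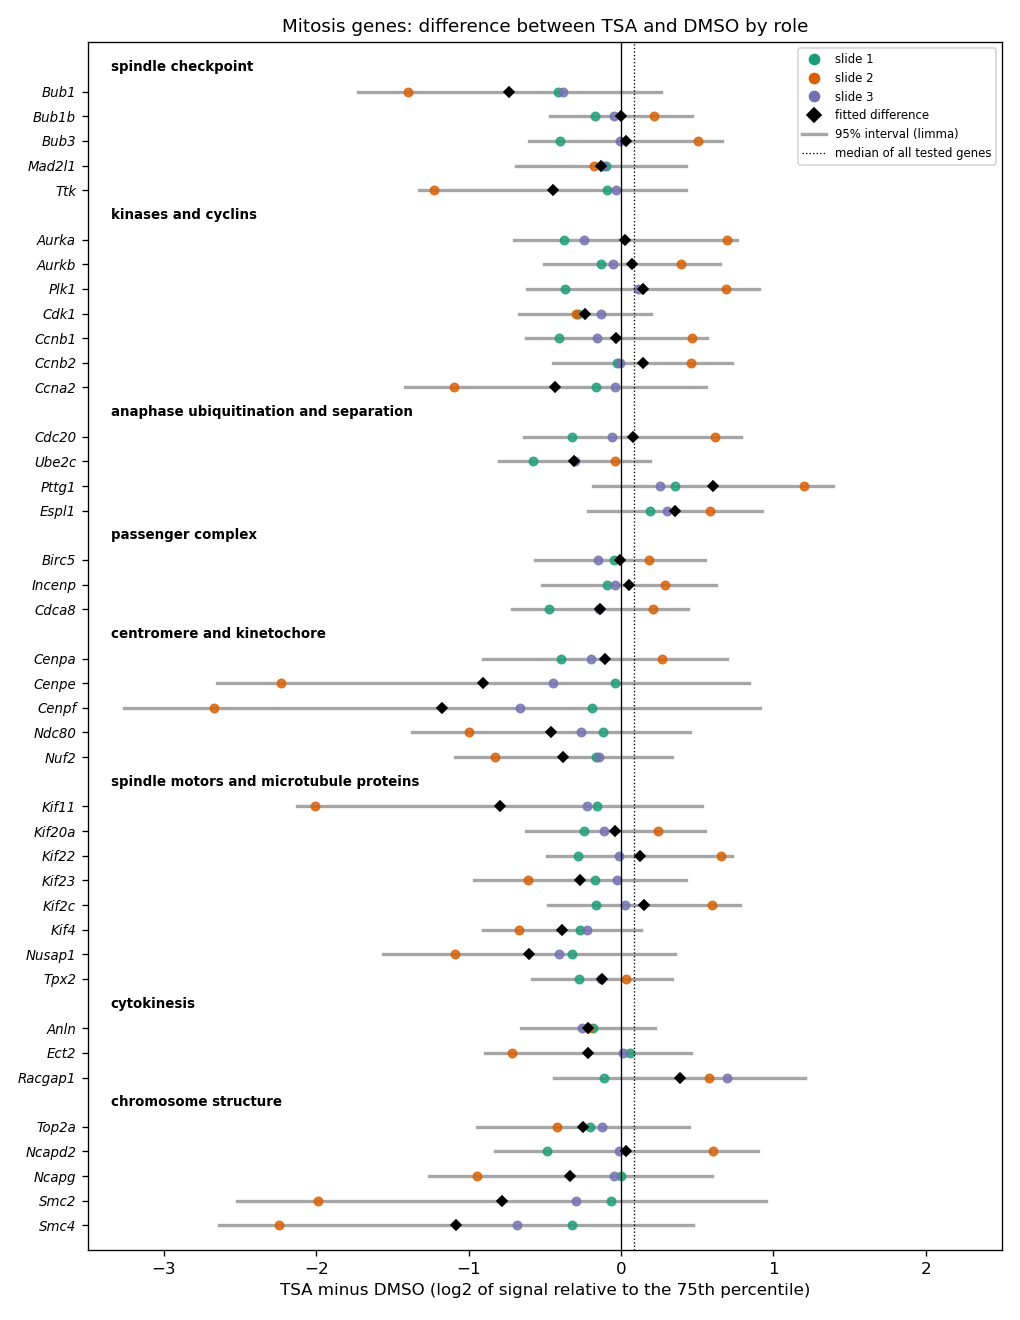
Difference between TSA and DMSO (x axis, log2 of the signal relative to the 75th percentile of its array) for the 40 tested mitosis genes, grouped by role. Coloured circles are the 3 slides, each with 1 DMSO and 1 TSA array, black diamonds the fitted difference with its 95% interval from limma, and the dotted line the median of all tested genes (0.08). The interval of every member includes 0, and the circle of slide 2 lies below -2 for 4 of them, Cenpf, Smc4, Cenpe and Kif11.

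The 6 arrays were not of the same quality. The 75th percentile of the signal was between 632 and 926 intensity units on 5 arrays and 311 on TSA replicate 2. Between 61.1% and 72.3% of spots lay well above background, the lowest share being that of TSA replicate 2. Its correlations with the other TSA arrays were 0.931 and 0.939, while the remaining same-treatment pairs gave 0.984 to 0.990. On the same scale, the 10 control RNAs of the labelling kit gave TSA minus DMSO differences of 0.05 on slide 1, 1.44 on slide 2 and 0.10 on slide 3. The chosen markers of stem cells, epiblast, neural progenitors, mesendoderm and fibroblasts were all well above background on all 6 arrays, as were 4 of 5 of endoderm. The summed level of the 6 fibroblast markers was 2.35 to 2.89 in DMSO and 3.43 to 3.90 in TSA. That of the 5 neural progenitor markers was 3.03 to 3.27 and 2.67 to 3.01. These sums did not overlap, the first being higher and the second lower in TSA. Levels were summed before log2 was taken, so the brightest marker weighs most, Nes in the neural sum and Thy1 in the fibroblast sum. Of the neural markers, Nes (-0.38), Pax6 (-1.21) and Zfp521 (-0.43) had a lower mean in TSA, and Hes5 (0.54) and Sox1 (0.25) a higher one. Differences of the fibroblast markers ran from 0.07 for Col3a1 to 2.73 for Col1a1. The other sums overlapped: 1.78 to 3.52 in DMSO and 2.98 to 4.51 in TSA for 5 mesendoderm markers, 4.40 to 5.45 and 4.31 to 4.90 for 6 stem cell markers, 6.83 to 7.40 and 6.97 to 7.33 for 4 epiblast markers, and 0.66 to 4.01 and 0.43 to 3.83 for 5 endoderm markers. The part of array quality and of cell mixture in the results on mitosis genes was not tested.

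The experiments differed in what TSA went with. On slide 1, 36 of the 40 members (90.0%) were lower in TSA, with a median of -0.18, and on slide 3, 34 (85.0%) were lower, with a median of -0.12. Over all tested genes 52.6% and 46.7% were lower on these slides, with medians of -0.03 and 0.03. On slide 2 the members scattered widely, with 20 lower and 20 higher and a median of -0.0041, against 34.7% lower and a median of 0.30 over all tested genes. The members differed little from each other on slides 1 and 3, where the SD over members was 0.18 and 0.24, and much more on slide 2, where it was 0.98. On both slide 1 and slide 3, 33 members (82.5%) were lower in TSA, against 38.6% of all tested genes. All but 2 members had a mean level above the 75th percentile of the arrays, and a comparison with the 7179 tested genes in that range was added after the values were seen. Of those genes 68.2% were lower on slide 1, 55.3% on slide 3 and 50.4% on both, and 49.9% had a lower mean. Of the 38 members in that range, 31 (81.6%) were lower on both slides. On all 3 slides, 18 members (45.0%) were lower and 2 (5.0%) higher, where 21.5% and 32.6% of all tested genes were. With a mean level in the range above, 42.1% of members and 26.1% of tested genes were lower on all 3 slides. The shares higher on all 3 were 5.26% and 22.3%.

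**Figure D2:**
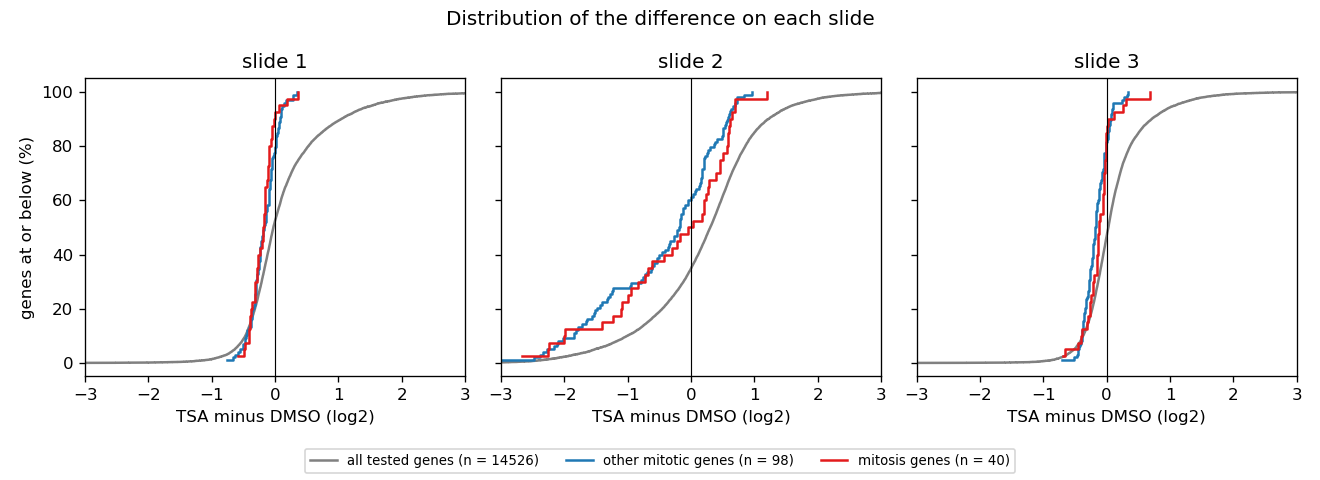
Share of genes at or below a given difference (y axis, %; x axis, TSA minus DMSO on the log2 scale) on each slide, for the 40 mitosis genes (red), 98 other mitotic genes (blue) and all 14526 tested genes (grey). On slides 1 and 3 the red curve is steep and lies left of 0 for 90.0% and 85.0% of its genes, and on slide 2 it is spread from -2.67 to 1.20.

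The kinases and cyclins that drive entry into mitosis had differences on both sides of 0. Of 7, the mean was lower in TSA for 3 and higher for 4 (median 0.03), and the interval of 6 lay within 2-fold. The slides differed: 7, 2 and 6 of them were lower in TSA on slides 1, 2 and 3, with medians of -0.28, 0.46 and -0.06. Without slide 2, all 7 had a lower mean (median -0.13). Cdk1, the kinase at the centre of mitotic entry, had levels of 2.56, 2.53 and 2.41 in DMSO replicates 1, 2 and 3 and 2.28, 2.24 and 2.28 in TSA (log2 relative to the 75th percentile, as for all levels here). All TSA arrays lay below all DMSO arrays, with steps of -0.28, -0.30 and -0.13 on slides 1, 2 and 3. Its difference was -0.24 ± 0.18 (SE from limma, 3 arrays per group; 95% interval -0.67 to 0.20, adjusted p = 0.653), and 8.29% of all tested genes had such a separation toward lower levels. Ccnb1, for cyclin B1, the partner that brings Cdk1 into mitosis, stood at 3.46, 3.30 and 3.36 in DMSO and at 3.06, 3.77 and 3.20 in TSA. TSA was lower on slides 1 and 3 and higher on slide 2, so that the groups overlapped, and the difference was -0.03 ± 0.25 (95% interval -0.62 to 0.56, adjusted p = 0.966). The other 2 tested probes of Ccnb1 gave -0.18 and -0.17. Ccnb2, for cyclin B2, gave 0.14 ± 0.25 and Ccna2, for cyclin A2 of S and G2 phase, -0.43 ± 0.41, of which slide 2 held -1.10 and slides 1 and 3 held -0.17 and -0.04.

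The Polo and Aurora kinases were lower in TSA on slide 1 and higher on slide 2, and on slide 3 the Aurora kinases were lower and Plk1 higher. Plk1, which acts from centrosome maturation to cytokinesis, had levels of 5.61, 5.68 and 5.46 in DMSO and 5.24, 6.37 and 5.57 in TSA. Only slide 1 had the lower value in TSA, and the groups overlapped (0.14 ± 0.32, 95% interval -0.62 to 0.91, adjusted p = 0.868). Aurka, for Aurora A at the spindle poles, was at 4.65, 4.60 and 4.65 in DMSO, a range far narrower than the 4.27, 5.30 and 4.41 in TSA. The TSA arrays of slides 1 and 3 lay below every DMSO array and that of slide 2 above them (0.03 ± 0.31, 95% interval -0.70 to 0.76, adjusted p = 0.977). Aurkb, the kinase of the passenger complex, gave 0.07 ± 0.24 (95% interval -0.51 to 0.65, adjusted p = 0.917), with 1.40, 1.58 and 1.54 in DMSO and 1.27, 1.97 and 1.49 in TSA.

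**Figure D3:**
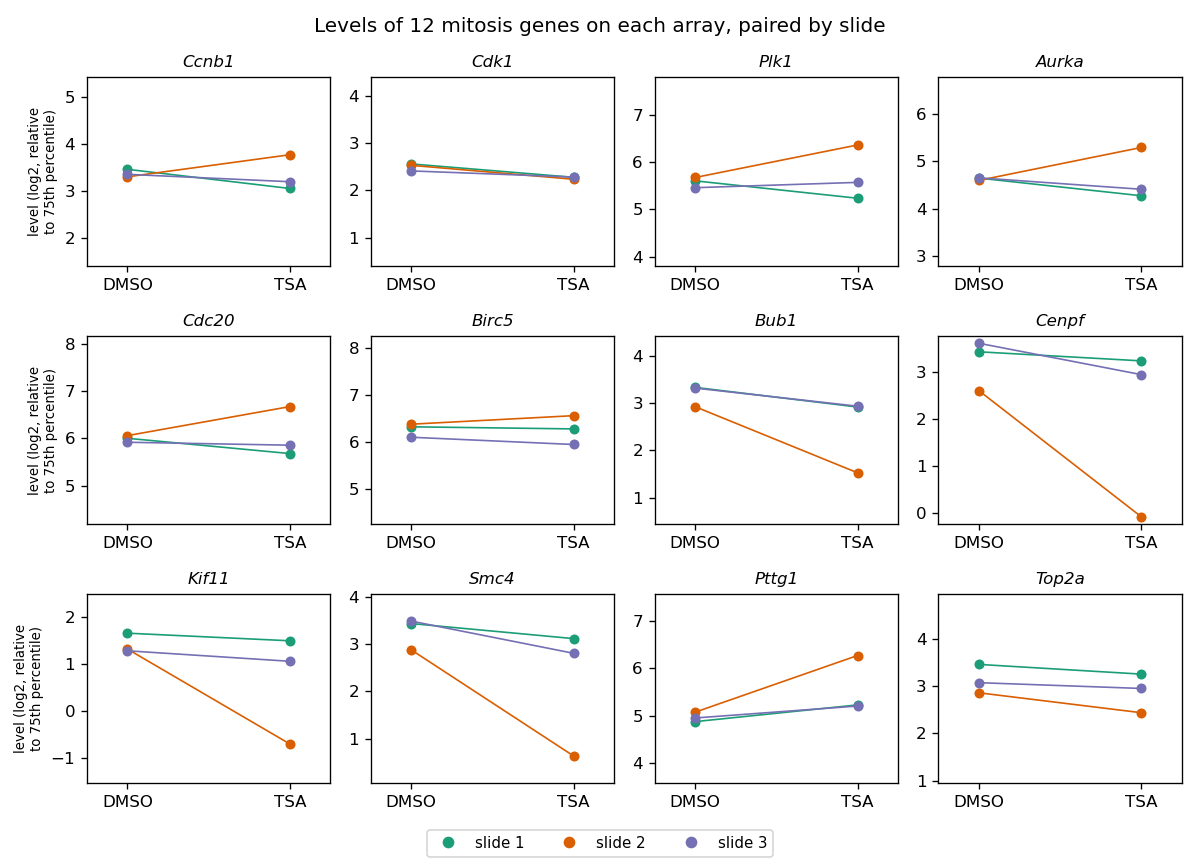
Levels of 12 mitosis genes (y axis, log2 of the signal relative to the 75th percentile of the array) on DMSO and TSA arrays, with a line joining the arrays of each slide; every panel spans the same range on the log2 scale. The steepest line of slides 1 and 3 is that of Smc4 on slide 3 (-0.68), and that of slide 2 drops by 2.67 for Cenpf and climbs by 1.20 for Pttg1.

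The genes that end mitosis gave the only differences that pointed upward on every slide. Pttg1 encodes securin, which holds back the protease separase until anaphase, and Espl1 encodes separase itself. Securin was at 4.87, 5.08 and 4.95 in DMSO and at 5.23, 6.28 and 5.20 in TSA. Every TSA array lay above every DMSO array, as for 16.4% of all tested genes. Its difference was 0.60 ± 0.33 (95% interval -0.19 to 1.39, adjusted p = 0.555, or 0.282 in the blocked fit), made of 0.35, 1.20 and 0.25 on slides 1, 2 and 3. Separase had levels of 1.49, 1.61 and 1.30 in DMSO and 1.68, 2.19 and 1.60 in TSA. Each slide had the higher value in TSA, but the groups overlapped narrowly (0.36 ± 0.24, 95% interval -0.21 to 0.93, adjusted p = 0.620). Cdc20, the activator of the anaphase-promoting complex and the target of the spindle checkpoint, had 6.0, 6.06 and 5.92 in DMSO and 5.68, 6.67 and 5.86 in TSA (0.08 ± 0.30, 95% interval -0.64 to 0.79, adjusted p = 0.927). Ube2c, the ubiquitin-conjugating enzyme of that complex, was lower in TSA on each slide, by -0.58, -0.04 and -0.30 (-0.31 ± 0.21, adjusted p = 0.623).

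Of the spindle checkpoint, which delays anaphase until all chromosomes are attached, 4 of 5 genes had a lower mean in TSA, with a median of -0.13. Bub1, a checkpoint kinase of the kinetochore, was at 3.34, 2.93 and 3.32 in DMSO and at 2.92, 1.53 and 2.94 in TSA. Each slide had the lower value in TSA, while DMSO replicate 2 lay level with the TSA arrays of the other slides. The difference was -0.73 ± 0.42 (95% interval -1.73 to 0.26, adjusted p = 0.570), with -0.42, -1.40 and -0.38 on slides 1, 2 and 3, and its second probe gave -0.67. Mad2l1, whose protein binds and blocks Cdc20, had 1.88, 1.63 and 2.07 in DMSO and 1.78, 1.45 and 1.95 in TSA, with overlapping groups (-0.13 ± 0.23, 95% interval -0.69 to 0.42, adjusted p = 0.829). Its slides gave -0.10, -0.18 and -0.12, nearly the same on each. Bub1b and Bub3, both parts of the checkpoint complex, gave -0.0026 and 0.03, and Ttk, the kinase that recruits the others, -0.45, of which slide 2 held -1.22 and the others -0.09 and -0.03.

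Centromere and kinetochore genes had the lowest group median, -0.46, and 5 of 5 had a lower mean in TSA, with slide 2 carrying most of it. Their medians on slides 1, 2 and 3 were -0.16, -1.0 and -0.26. Cenpf, for a large kinetochore protein that appears in G2, had levels of 3.42, 2.60 and 3.60 in DMSO and 3.23, -0.07 and 2.94 in TSA. The TSA array of slide 2 lay far below all others, and the DMSO array of slide 2 was the lowest of its group. The difference was -1.18 ± 0.87 (95% interval -3.26 to 0.91, adjusted p = 0.646), and without slide 2 it was -0.43 (adjusted p = 0.315). Cenpe, a kinesin motor that moves chromosomes to the spindle equator, had 4.13, 3.51 and 4.19 in DMSO and 4.08, 1.27 and 3.75 in TSA. Its difference of -0.91 ± 0.73 (95% interval -2.65 to 0.84, adjusted p = 0.665) was -0.24 without slide 2, and its 3 probes gave -2.23, -2.20 and -1.72 on that slide. Cenpa, the histone H3 variant that marks centromeres, went the other way on slide 2, with 2.58, 3.04 and 2.66 in DMSO and 2.19, 3.31 and 2.45 in TSA (-0.11 ± 0.33, 95% interval -0.91 to 0.69, adjusted p = 0.906). Ndc80 and Nuf2, partners in the complex that grips microtubules, gave -0.46 ± 0.38 and -0.38 ± 0.30, lower in TSA on each slide.

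The chromosome passenger complex corrects faulty attachments. Its 3 genes listed beside the kinase Aurkb (0.07, described above) gave differences between -0.14 and 0.05. Birc5, or survivin, had levels of 6.32, 6.38 and 6.10 in DMSO and 6.28, 6.56 and 5.95 in TSA, with groups that overlapped almost fully. Its difference was -0.0060 ± 0.23 (95% interval -0.56 to 0.55, adjusted p = 0.993). The scaffold gene Incenp gave 0.05 ± 0.24, and Cdca8, for borealin, -0.14 ± 0.24 (95% interval -0.72 to 0.44, adjusted p = 0.827), with levels of 5.80, 5.74 and 5.55 in DMSO and 5.32, 5.95 and 5.41 in TSA. A second probe of Cdca8 gave 0.22, so its 2 probes pointed in opposite directions. For each of the 3 genes the interval lay within 2-fold.

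Among 8 spindle motors and microtubule proteins, 6 had a lower mean in TSA, with a median of -0.20. Kif11, the Eg5 motor that pushes the spindle poles apart, was at 1.65, 1.31 and 1.27 in DMSO and at 1.49, -0.70 and 1.05 in TSA. The TSA array of slide 2 stood apart from the other 5 (-0.80 ± 0.56, 95% interval -2.13 to 0.53, adjusted p = 0.629), and without slide 2 the difference was -0.19. The second, dimmer probe of Kif11 gave a smaller difference of -0.34, with -0.93 on slide 2. Kif4, a chromosome-bound kinesin, had 1.96, 1.88 and 1.91 in DMSO and 1.69, 1.21 and 1.69 in TSA. Here all TSA arrays lay below all DMSO arrays (-0.39 ± 0.22, 95% interval -0.91 to 0.13, adjusted p = 0.567), and a second probe gave -0.39 as well. Nusap1, a microtubule-bundling protein, gave -0.61 ± 0.40 and had -0.32, -1.09 and -0.41 on slides 1, 2 and 3. Kif22 and Kif2c, a chromosome-arm motor and a microtubule depolymerase, gave 0.12 ± 0.25 and 0.15 ± 0.26, while Kif20a and Kif23, motors of the central spindle, gave -0.04 ± 0.25 and -0.27 ± 0.29. Tpx2, which activates Aurora A on microtubules, gave -0.13 ± 0.19.

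Of the 3 cytokinesis genes, Anln, for the ring protein anillin, had levels of -0.52, -0.38 and -0.36 in DMSO and -0.70, -0.60 and -0.62 in TSA. All TSA arrays lay below all DMSO arrays, with -0.18, -0.21 and -0.26 on slides 1, 2 and 3 (-0.22 ± 0.18, 95% interval -0.66 to 0.22, adjusted p = 0.673), but its second probe gave -0.11 and was higher in TSA on slide 3. Together with Cdk1 and Kif4 it made 3 members (7.5%) whose groups separated toward lower levels, beside 8.29% of all tested genes, and Pttg1 was the 1 member (2.5%) that separated upward, beside 16.4%. Racgap1, a partner of Kif23 in the central spindle, was at -0.18, 0.19 and -0.58 in DMSO and -0.29, 0.77 and 0.12 in TSA. Its groups overlapped (0.39 ± 0.34, 95% interval -0.44 to 1.21, adjusted p = 0.687). Ect2, the exchange factor that starts the furrow, gave -0.22 ± 0.28, all of it from slide 2.

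Chromosome structure genes split by gene. Smc4, a core subunit of condensin, the complex that compacts chromosomes, had levels of 3.44, 2.88 and 3.49 in DMSO and 3.12, 0.63 and 2.81 in TSA. Each slide had the lower value in TSA, the largest step being on slide 2. The difference was -1.08 ± 0.65 (95% interval -2.64 to 0.47, adjusted p = 0.592), and without slide 2 it was -0.50 (adjusted p = 0.250, and 0.0978 when that fit also had the block). Its partner Smc2 gave -0.78 ± 0.73, with -0.07, -1.99 and -0.30 on slides 1, 2 and 3, and its 4 probes gave between -2.59 and -1.22 on slide 2. Top2a, the topoisomerase that untangles sister chromosomes, was at 3.46, 2.86 and 3.07 in DMSO and 3.26, 2.44 and 2.95 in TSA (-0.25 ± 0.29, 95% interval -0.94 to 0.44, adjusted p = 0.745). The condensin subunit genes Ncapg and Ncapd2 gave -0.33 ± 0.39 and 0.03 ± 0.36, and slide 2 gave -0.95 for the first and 0.60 for the second.

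Slide 2 was the main source of spread among the members, mostly through its TSA array. Deviations from the mean of the other arrays of the same treatment had an SD over members of 1.18 on TSA replicate 2 and 0.31 on DMSO replicate 2. Over all tested genes these SDs were 0.95 and 0.46. On TSA replicate 2, 11 of 40 members (27.5%) lay more than 1 below the mean of the other TSA arrays on the log2 scale, against 11.5% of all tested genes, and 2 (5.0%) lay more than 1 above it, against 15.2%. Of the 98 other mitotic genes, 30 (30.6%) lay more than 1 below it and 3 more than 1 above, so the drop was not particular to the members. Among the members the deviations were -3.16 for Cenpf, -2.64 for Cenpe, -2.54 for Smc2, -2.33 for Smc4 and -1.97 for Kif11, and 1.13 for Ncapd2 and 1.06 for Pttg1. A second, dimmer probe of Kif11 gave -1.07. On DMSO replicate 2 the same measure was -0.92, -0.65, -0.73, -0.58 and -0.15 for the first 5 genes, and 0.28 and 0.16 for the other two. Across the 40 members the deviations on the 2 arrays correlated at 0.876, against 0.632 over all tested genes and 0.843 over 98 other mitotic genes. Among genes with a mean level above the 75th percentile, the correlation was 0.887 for members and 0.714 for tested genes. The arrays share a slide and an experiment, and genes are not independent replicates. TSA replicate 2 was also the dimmest array.

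**Figure D4:**
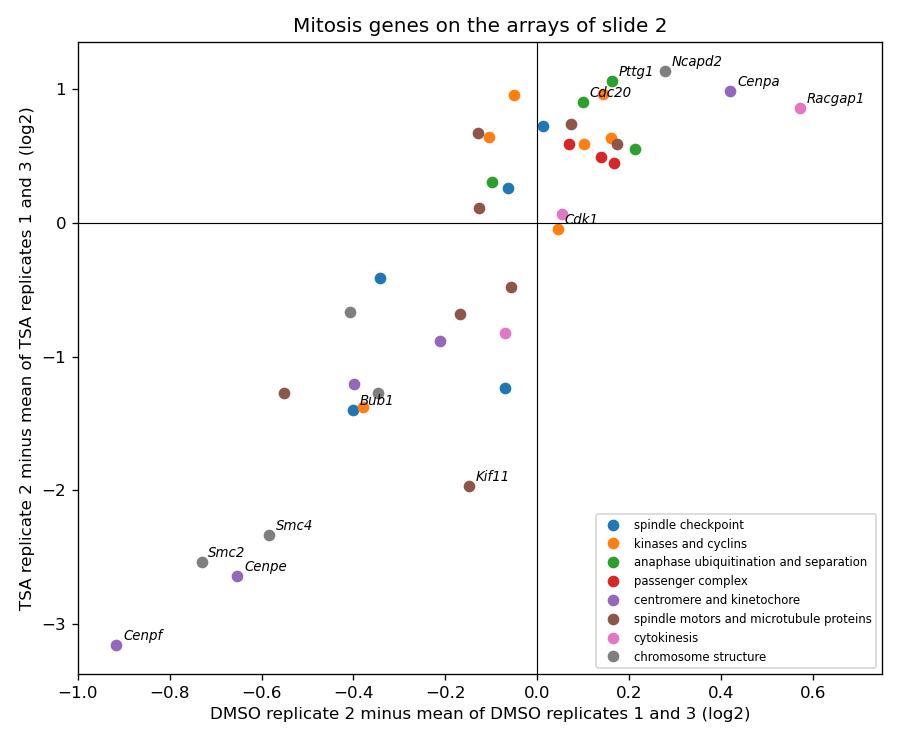
Deviation of DMSO replicate 2 (x axis) and of TSA replicate 2 (y axis) from the mean of the other 2 arrays of the same treatment, on the log2 scale, for the 40 mitosis genes coloured by role. Cenpf, Smc2, Cenpe and Smc4 lie lowest on both arrays, and the correlation over members was 0.876.

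With both arrays of slide 2 left out, 36 of 40 members had a lower mean in TSA, with a median of -0.18, against 50.4% of all tested genes and a median of -0.0031. By limma 0 members rose and 0 fell, and the smallest adjusted p was 0.250; over all tested genes 0 passed in that fit too. With the slide as a block on the remaining 4 arrays, an alternative added after the data were seen, 10.9% of all tested genes rose and 2.53% fell, while 0 members did either. The smallest adjusted p of a member was then 0.0971, for Bub1.

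Genes of mitosis outside the list were set beside the members. Of 103 such genes, 98 were tested, and 0 rose and 0 fell, where 1.36% and 0.0551% of all tested genes did. An unadjusted p under 0.05 was reached by 2, both lower in TSA. Over all tested genes 2.78% reached it on that side and 12.1% on the higher side. The mean in TSA was lower for 71 (72.4%), with a median of -0.20, against 41.9% and 0.08 over all tested genes. On slides 1, 2 and 3 the medians of the 98 genes were -0.17, -0.18 and -0.17, but their SD over genes was 0.21, 0.94 and 0.19. On slide 2 they ran from -3.05 to 0.97. The 33 tested checkpoint and kinetochore genes had a median of -0.25, the 24 spindle and cytokinesis genes -0.33, the 27 regulators of entry and exit -0.01 and the 14 condensin and cohesin genes -0.59. Without slide 2 these 4 medians were -0.18, -0.17, -0.14 and -0.17. The condensin and cohesin genes had medians of -0.12, -1.59 and -0.18 on slides 1, 2 and 3. Ska2, of a complex that couples kinetochores to microtubules, gave -0.97 ± 0.32 (adjusted p = 0.289), with -0.64, -1.56 and -0.70 on slides 1, 2 and 3. Dsn1, of the inner kinetochore linker, gave -0.48 ± 0.18 (adjusted p = 0.356) and was even across slides, at -0.50, -0.53 and -0.41. Plk4, the kinase that starts centriole duplication, gave -0.79 ± 0.39 (adjusted p = 0.509), and Anapc4, a subunit of the anaphase-promoting complex, -0.40 ± 0.20 (adjusted p = 0.522). Ska2 was the 1 gene of the 98 that fell in any alternative. It fell with array weights (adjusted p = 0.0259), where 862 of 28158 tested probes fell. It also fell without slide 2 in the blocked fit (adjusted p = 0.0392), where 2.53% of all tested genes fell.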

How the data were processed

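Per the file headers, the deposited scanner files hold intensity values made by the authors with Agilent Feature Extraction (10.7 in the submitters' processing notes); the corrections within that processed signal are not given in the sources used here. The deposited series table holds log2 values of the authors, whose normalization and centring are not given in the sources used here (column medians 6.31 to 6.34; correlation with log2 of the processed signal 0.982 to 0.992). The remaining columns used were spot flags.

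Control and outlier spots were left out (57 to 84 outlier spots of 43379 per array). Log2 of the processed signal minus the array's 75th percentile was averaged over spots of a probe. Probes well above background on at least 3 of 6 arrays were tested (28158 of 41174); 27479 probes matched 1 RefSeq gene, 0 several and 13695 none. A gene was read at its tested probe with the highest mean. Treatment was tested with limma 3.58.1 in R 4.3.3 (two-sided, Benjamini-Hochberg over all tested probes, threshold 0.05), and errors are moderated standard errors. The code was checked on simulated data without differences between slides, so that check does not show how the fit behaves with these slides. P-values measure the spread between samples that the design text calls independent experiments.

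Replicate numbers are slide numbers. Deviations from group means correlated at 0.484, 0.614 and 0.585 within slides and at -0.568 to 0.0916 between them, so they pair the samples. Alternatives were normexp (offset 50, on median spot signals) with quantile normalization, quantile normalization, median centring, the authors' table, 2 filters, the slide block, trended robust moderation, outliers kept, probe means, array weights, each array left out, and slide 2 left out. Full statistics go to 13 key genes, the member with the smallest p in each role group and the 3 largest and smallest differences; of other genes, to the 4 with the smallest p. The members and lists were chosen with earlier results of these data known. Python 3.11.15 with numpy 2.4.6, pandas 2.3.3, scipy 1.17.1 and matplotlib 3.10.9 was used.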

Additional observations from a re-analysis of the deposited data

How the results depend on the processing

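The counts of mitosis genes that rose or fell were 0 under all 19 alternatives, with a smallest adjusted p of 0.0717 (array weights). Their median difference stayed negative, from -0.22 with median centring to -0.10 without TSA replicate 1, and the number lower in TSA on all 3 slides stayed between 17 and 19; leaving out an array or a slide gives no such number. Signs of single members were less steady. Of the 40, 15 were lower and 3 higher under all 19 alternatives, and 22 turned sign under at least 1, none of them past the threshold on either side. The most turns came without TSA replicate 2 (15), with array weights (13) and without slide 2 (11); with the slide as a block it was 0. Array weights gave TSA replicate 2 a weight of 0.0801 and TSA replicate 3 one of 6.99, so that fit rests largely on the latter. Over all probes, limma called 259 higher and 10 lower. This became 617 and 41 with the slide as a replicate block, 2099 and 862 with array weights, 2322 and 735 without slide 2 and with the replicate block, and 58 and 0 without a filter (712 lower at an unadjusted p under 0.05). The count of higher probes was 148 with quantile normalization, 137 with median centring, 142 with the authors' table and 127 with normexp. Without slide 2 and without the block it was 0 and 0 (3182 and 1813 at an unadjusted p under 0.05, lowest adjusted p 0.0509). Leaving out 1 array gave 0 to 575 higher and 0 to 54 lower; the highest counts came without TSA replicate 2, and each of the other 5 arrays left out gave 0 and 0 (1694 to 2471 and 325 to 978 at an unadjusted p under 0.05). Of the other mitotic genes, 1 fell with array weights and 1 without slide 2 with the block. The cause of these shifts was not tested. The replicate block changed no call among the mitosis genes. With 3 arrays per group, their number limits the precision.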

Other observations

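Across the 40 mitosis genes the log2 gene span in RefSeq correlated at -0.544 with the deviation of TSA replicate 2 and at -0.357 with that of DMSO replicate 2. Over all 14526 tested genes these correlations were -0.309 and -0.111, and over the 98 other mitotic genes -0.372 and -0.166. Over tested genes with a mean level above the 75th percentile they were -0.362 and -0.141, against -0.557 and -0.388 for the members in that range. The 5 members that lay lowest on TSA replicate 2, Cenpf, Cenpe, Smc2, Smc4 and Kif11, span 47502, 60978, 49145, 29886 and 45482 bases. The 5 that lay highest, Ncapd2, Pttg1, Cenpa, Plk1 and Aurka, span 24094, 7220, 7961, 10450 and 14697 bases. Kif4 and Anln are among the exceptions, with spans of 101207 and 57998 bases and deviations of -0.48 and 0.06. So are Tpx2 and Bub1b, with 47358 and 43391 bases and deviations of 0.11 and 0.26. The short Ccna2, with 8174 bases, had a deviation of -1.37. Genes share arrays and are not independent replicates, and the spans include introns.

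Several probes were tested for 16 mitosis genes, and for 2 of these, Cdca8 and Ncapd2, the probes gave differences of both signs. The widest gap between probes of a gene was 0.87, for Cenpf, whose second probe was dim, well above background on 5 of 6 arrays, and gave -0.31.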
